A study of Mus musculus with 11 samples.

Results

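The genes described here are 42 components of the cardiac sarcomere and Z-disc, chosen by gene symbol from a table of 15274 genes measured by RNA sequencing in mouse hearts. All 42 were in the table and all 42 passed the filter on low values (at least 10 normalised counts in at least 2 libraries), as did 14751 of all genes. They were grouped by role into 7 genes of the thick filament and M-band, 7 of the thin filament, 4 fetal and atrial isoforms, 20 of the Z-disc and its partners, and 4 muscle ubiquitin ligases.

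Uninjured and injured regions of the heart were compared in mice of the inbred strains C57BL/6J (B6) and C3H/HeJ (C3H), all 8 weeks old, with day 7 in the library titles. There were 3 B6 uninjured, 3 B6 injured, 3 C3H uninjured and 2 C3H injured libraries from 6 mice, and each library came from 1 named mouse, so that 5 mice gave both regions and C3H mouse 3 gave the uninjured region alone. No transgene or treatment other than the injury is named for any group, and the kind of injury is not stated in the labels. Values are normalised counts, that is reads per gene divided by 1 size factor of the library, and libraries held 9699985 to 22138459 reads. Libraries are numbered by mouse within a strain.

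The sarcomere is the contractile unit of the heart muscle cell, in which myosin thick filaments slide along actin thin filaments under the control of calcium, troponin and tropomyosin. Thin filaments of neighbouring sarcomeres are anchored at the Z-disc, which also holds titin, stress sensors and signalling proteins. In rodents the adult ventricle relies on alpha-myosin heavy chain and cardiac alpha-actin, while beta-myosin heavy chain and skeletal alpha-actin belong to the fetal programme that is known to return under load or damage.

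The label of the tissue was checked against marker genes. The 17 cardiomyocyte reference genes outside the sarcomere summed to 272897 to 950320 normalised counts per library, and their most abundant member, myoglobin (Mb), ranged from 62304 to 427496. Of 14 skeletal muscle markers 9 were in the table, and these summed to 553 to 1517 normalised counts, with Myl1 at 179 to 1118. The atrial myosin light chain Myl7 was near 0 in each of the 11 libraries (0 to 24.9 normalised counts), although the natriuretic peptide gene Nppa, also an atrial marker, reached 69974. All 5 C3H libraries had over 100 normalised counts of Xist and all 6 B6 libraries had over 100 of Y-linked genes, with no library showing both, so that strain and sex cannot be told apart.

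The members took a large part of each library. Their share of all normalised counts was 10.8 to 12.3% in B6 uninjured, 8.31 to 10.1% in B6 injured, 13.1 to 14.2% in C3H uninjured and 5.76 to 6.08% in C3H injured libraries. The groups of a strain did not overlap in this share, and the C3H injured libraries were the lowest of the 11. Per kilobase of the longest coding transcript, the mean level over 11 libraries was highest for the ventricular light chains Myl2 (151479 normalised counts per kb) and Myl3 (151367), followed by the cardiac actin Actc1 (142900). The lowest were the atrial light chains Myl4 (68.0) and Myl7 (13.4). In such tissue RNA, fewer heart muscle cells and less RNA of a gene per cell cannot be told apart.

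**Figure D1:**
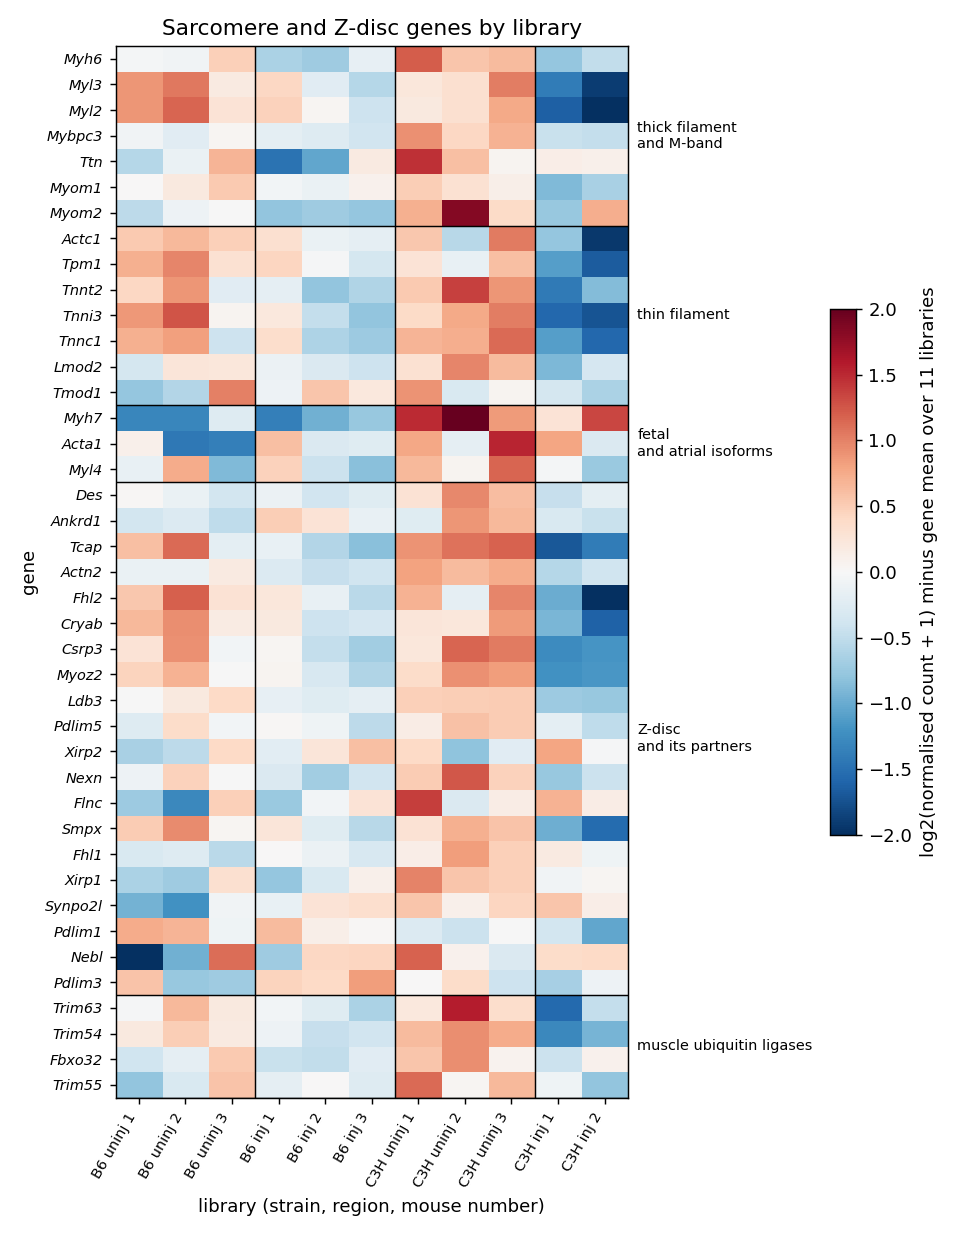
Heat map of 41 of the 42 genes (Myl7, near 0, is left out) in the 11 libraries, grouped by role; colour is log2(normalised count + 1) minus the gene's mean over all libraries, with values beyond 2 in either direction drawn at the end of the scale. The 2 C3H injured libraries are blue for most thick filament, thin filament and Z-disc genes, and the C3H uninjured libraries are red for Myh7.

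Promoter sequences are shown for 5 members on which the later comparisons turn, the actin pair, the myosin heavy chain pair and Xirp2, the member with the highest estimate in C3H. RefSeq sequences of the 250 bases before the annotated start (build GRCm38.p6, not the build of the reads) were at hand for 35 of the 42 members, with 48 starts in all. Capitals mark matches to a CArG box (the site of serum response factor), a MEF2 site or the MCAT element CATTCC, each searched on both strands; matches do not overlap in the promoters printed, and each is written 5′ to 3′ on the strand of the gene.
Actc1, chr2:114052876-114053125, minus strand: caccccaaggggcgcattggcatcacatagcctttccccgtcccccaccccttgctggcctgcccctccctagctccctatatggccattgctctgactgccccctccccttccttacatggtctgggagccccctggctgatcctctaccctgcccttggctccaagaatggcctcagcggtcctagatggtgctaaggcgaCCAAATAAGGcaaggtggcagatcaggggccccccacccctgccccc
Acta1, chr8:123894776-123895025, minus strand: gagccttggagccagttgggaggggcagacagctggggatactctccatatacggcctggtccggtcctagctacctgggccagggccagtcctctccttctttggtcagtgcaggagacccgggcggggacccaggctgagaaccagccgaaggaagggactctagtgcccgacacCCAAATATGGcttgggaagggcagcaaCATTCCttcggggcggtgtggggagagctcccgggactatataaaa
Myh6, chr14:54966608-54966857, minus strand: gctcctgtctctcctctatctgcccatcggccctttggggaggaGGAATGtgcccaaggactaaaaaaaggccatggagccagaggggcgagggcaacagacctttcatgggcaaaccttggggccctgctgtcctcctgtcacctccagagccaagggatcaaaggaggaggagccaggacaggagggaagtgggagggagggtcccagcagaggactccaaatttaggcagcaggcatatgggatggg
Myh7, chr14:54994627-54994876, minus strand: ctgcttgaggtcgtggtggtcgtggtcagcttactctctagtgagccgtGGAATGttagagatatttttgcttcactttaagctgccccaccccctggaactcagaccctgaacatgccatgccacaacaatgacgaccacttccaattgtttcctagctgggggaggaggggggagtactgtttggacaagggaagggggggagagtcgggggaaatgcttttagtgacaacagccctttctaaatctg
Xirp2, chr2:67445752-67446001, plus strand: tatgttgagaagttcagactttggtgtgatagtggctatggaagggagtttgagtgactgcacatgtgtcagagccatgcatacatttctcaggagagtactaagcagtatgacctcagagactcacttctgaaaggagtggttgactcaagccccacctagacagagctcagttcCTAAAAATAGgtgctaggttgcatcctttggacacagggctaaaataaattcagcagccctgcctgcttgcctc
Both actin promoters held a CArG box, 47 bases before the start in Actc1 and 73 in Acta1, and Acta1 held an MCAT element as well. The myosin promoters each held an MCAT element, 206 bases before the start in Myh6 and 201 in Myh7. Xirp2 held a MEF2 site 74 bases before the start. A CArG box was present in 22.9% of the 48 promoters of members against 1.47% of all 32851 promoters of this length, a MEF2 site in 10.4% against 0.508%, and an MCAT element in 31.3% against 12.6%. These are matches of letters and were not measured as sites of binding.

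In C3H, injury was accompanied by lower values of most sarcomere genes. Of the 42 members 23 fell and 0 rose past the threshold (limma, adjusted p under 0.05), where 15.4% of all 14751 genes tested fell, 15.3% rose and 30.7% passed in either direction. The median log2 change of the members was -1.17, against 0.01 for all genes. In 30 members both injured libraries lay below all 3 uninjured ones, a pattern found in 29.7% of all genes, and in 0 both lay above (29.6% of all genes). The calls rested on few libraries: 9 of the 23 held without each of the 11 libraries in turn (Actn2, Csrp3, Ldb3, Myl2, Myoz2, Smpx, Tcap, Tnni3, Trim54). Of the 23, 8 were lost without C3H injured library 1 and 9 without C3H injured library 2, and either omission leaves 1 injured library. With quantile normalisation 15 members fell, where 31.8% of all genes were called (the calls for Actn2, named here as held without each library, and 7 others were lost), with the C3H libraries fitted alone 19 (25.4% of all genes called), and with mouse as a fixed block 26 (34.9% of all genes called).

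Markers of other cell types moved with the same comparison. The 11 macrophage markers summed to 14506 to 25154 normalised counts in C3H uninjured and 79756 to 140019 in C3H injured libraries, with 10 of 11 past the threshold and higher. The 11 fibroblast markers summed to 75404 to 303926 and 557449 to 764493, with 7 higher and 1 lower. The 17 cardiomyocyte reference genes summed to 768162 to 950320 in C3H uninjured and to 272897 to 348743 in C3H injured libraries, and 9 of them fell. The sums of the 8 smooth muscle markers overlapped, at 6910 to 14000 and 8321 to 13587, but 5 of 8 had higher estimates, of which Cnn1 passed (1.66) and Actg2 (1.83), Tagln (0.88) and Mylk (0.75) were higher without overlap, and Smtn fell (-0.97). All 7 endothelial markers had lower estimates (median -0.38), and Egfl7 (-0.89) and Emcn (-0.85) fell. The macrophage gene Lyz2 was at 6196, 10017 and 6327 in C3H uninjured and 44705 and 75536 in C3H injured libraries, with no overlap. The collagen gene Col3a1 was at 100456, 7115 and 26937 in C3H uninjured and 249675 and 185054 in C3H injured libraries, with no overlap. The smooth muscle actin Acta2 was at 7010, 2010 and 5616 in C3H uninjured and 6378 and 2540 in C3H injured libraries, with overlap. The endothelial gene Cdh5 was at 6132, 3028 and 5309 in C3H uninjured and 5273 and 3470 in C3H injured libraries, with overlap. The part of these shifts in the sarcomere result was not tested, other than by the comparison with the reference genes given further on.

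**Figure D2:**
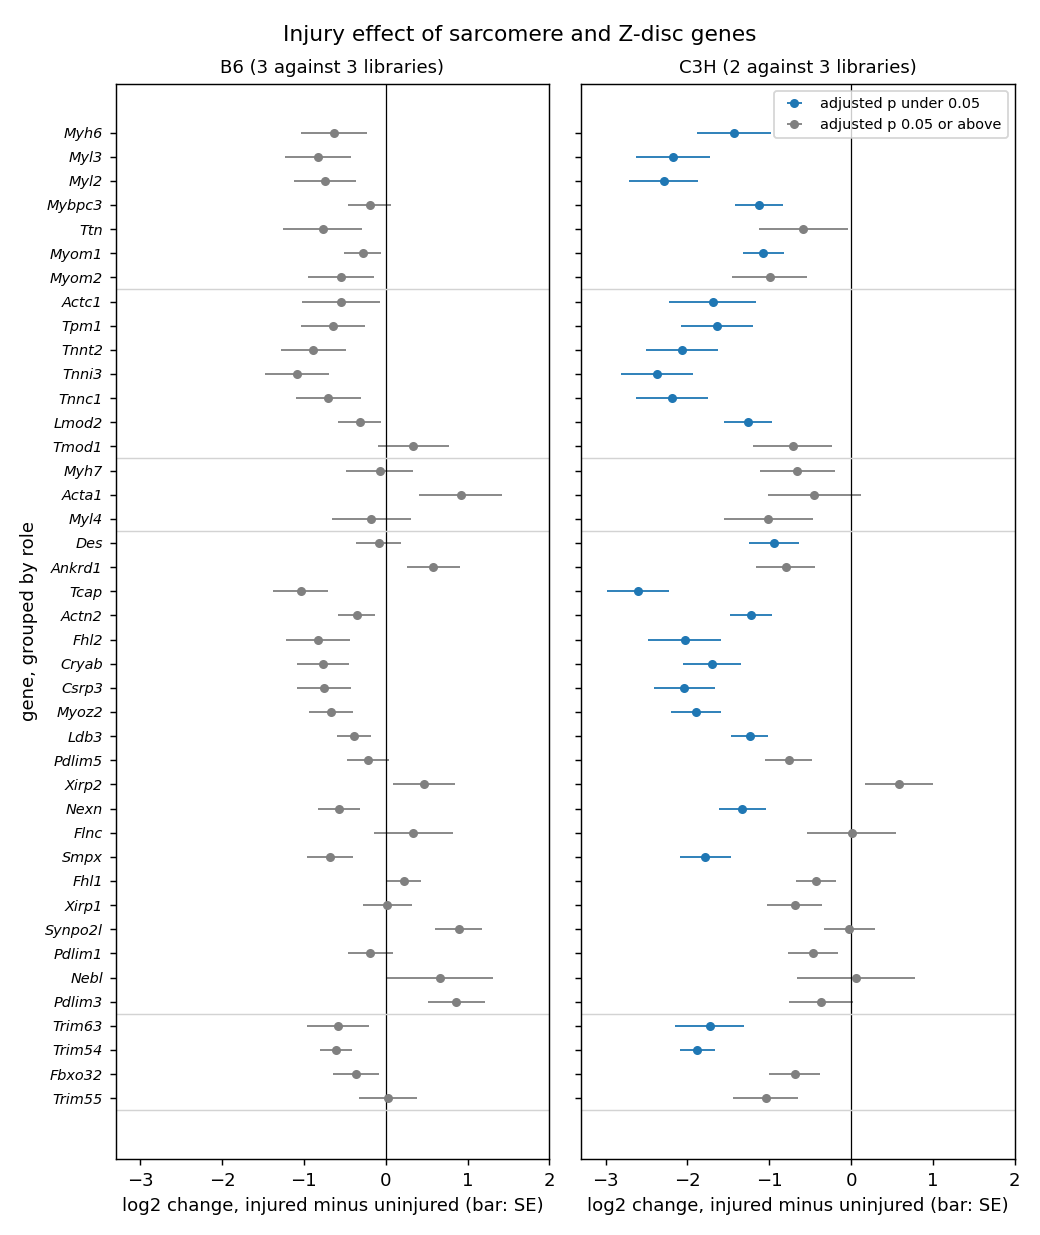
Log2 change from uninjured to injured regions in B6 (left) and C3H (right) for 41 members grouped by role; points are limma estimates, bars their standard errors, and blue marks an adjusted p under 0.05. In C3H 23 genes are blue and all lie below 0; in B6 none is.

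Among thick filament and M-band genes, 5 of 7 fell in C3H (median -1.13). Myl2, the regulatory light chain of the ventricle, was at 129861, 141340 and 190753 normalised counts in the C3H uninjured libraries and at 36187 and 26619 in the injured ones, a log2 change of -2.29 (SE 0.42, adjusted p = 0.00223). Myl3, the ventricular essential light chain, went from 140087, 149642 and 244590 to 45366 and 32231 (-2.17, SE 0.45, adjusted p = 0.00425), a call lost without C3H injured library 2. Both light chains were thus separated between the regions with no overlap. Myh6, alpha-myosin heavy chain, stood at 593019, 373939 and 398943 in uninjured and 149911 and 181899 in injured libraries (-1.43, SE 0.45, adjusted p = 0.0307). This call was lost without either injured library, without C3H uninjured library 1 or 3 or without B6 injured library 2 (-1.57 to -1.23), with quantile normalisation (-0.36), and with mouse as a block (-1.51, adjusted p = 0.055). The myosin-binding protein Mybpc3 (-1.13) and the M-band protein Myom1 (-1.07) also fell; the call for Mybpc3 was lost without either injured library (-1.14 and -1.11) and that for Myom1 without injured library 1 (-0.96), and both with quantile normalisation (-0.58 and -0.50). Ttn, the giant spring titin, was at 128905, 71089 and 48595 against 51586 and 50523, which overlapped (-0.58, SE 0.54, adjusted p = 0.44), with -0.20 without C3H uninjured library 1 and -0.91 without library 3. Myom2, which like Ttn was chosen for this detail after its values were seen, overlapped too, at 22661, 49546 and 18036 against 8190 and 22899 (-0.99, adjusted p = 0.12; -0.25 without C3H injured library 1, -1.73 without injured library 2 and -0.56 without uninjured library 2), and was called with mouse as a block (-1.29, adjusted p = 0.0037).

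Of the 7 thin filament genes, 6 fell in C3H (median -1.69). Tnni3, the inhibitory subunit of cardiac troponin, was at 106847, 137255 and 165779 in uninjured and at 27593 and 24527 in injured libraries (-2.37, SE 0.44, adjusted p = 0.00225). The calcium-binding subunit Tnnc1 changed by -2.19 (SE 0.44) and the tropomyosin-binding subunit Tnnt2 by -2.06 (SE 0.44); their calls were lost without C3H injured library 2 (-1.95) and library 1 (-1.79) respectively. All 3 subunits of the troponin complex were thus lower with no overlap between regions. Actc1 ran from 268202, 126216 and 380243 to 108001 and 48887 (-1.69, SE 0.53, adjusted p = 0.0305). The call for Actc1 was lost without C3H uninjured library 1 or 3 or injured library 2 (-1.59, -1.34 and -1.12), with quantile normalisation (-0.86), and with mouse as a block (-1.34, adjusted p = 0.057). Tpm1, the tropomyosin that lies along actin, went from 204867, 153367 and 256684 to 78702 and 53149 (-1.63, SE 0.44, adjusted p = 0.0155), lost without C3H uninjured library 3 or injured library 2 (-1.45 and -1.35) or with quantile normalisation (-1.01). Lmod2, which extends thin filaments, changed by -1.26 (SE 0.29, adjusted p = 0.00781), lost without injured library 1 (-0.98) or with quantile normalisation (-0.71), and the pointed-end cap Tmod1 by -0.71 (SE 0.48, adjusted p = 0.279).

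The Z-disc genes were divided. Of 20 genes, 10 fell in C3H and the others did not pass the threshold, with changes from -2.61 to 0.59 (median -0.87). Tcap, which caps titin at the Z-disc, had the largest fall past the threshold of all members: 58687, 66860 and 71698 normalised counts in uninjured and 9726 and 11914 in injured libraries (-2.61, SE 0.38, adjusted p = 0.000578). Csrp3, a Z-disc protein linked to stretch sensing, changed by -2.04 (SE 0.37), the calcineurin-binding Myoz2 by -1.90 (SE 0.30), the small protein Smpx by -1.78 (SE 0.31), Ldb3 by -1.24 (SE 0.23) and alpha-actinin Actn2, the main Z-disc crosslinker, by -1.22 (SE 0.26). The calls for Fhl2 (-2.03), the chaperone Cryab (-1.70) and the actin-binding Nexn (-1.33) were lost without 1 injured library each (-1.49 and -1.35 without library 2 and -1.16 without library 1). Des, the intermediate filament desmin, stood at 54524, 86992 and 69020 against 32648 and 39169 (-0.95, SE 0.30, adjusted p = 0.0339), and was lost without B6 injured library 2, C3H uninjured library 2 or 3 or either C3H injured library (-1.08 to -0.78), or with quantile normalisation (-0.52).

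The other 10 Z-disc genes did not pass the threshold in C3H. Xirp2, an actin-binding repeat protein of the Z-disc and the intercalated disc, was at 12569, 5463 and 8103 in uninjured and 16356 and 9334 in injured libraries (0.59, SE 0.42, adjusted p = 0.307), and the estimate was 0.03 with the length-corrected values described further on. Its relative Xirp1 was at 5465, 4049 and 3823 against 2632 and 2821, lower without overlap (-0.69, SE 0.34, adjusted p = 0.14), and called with mouse as a block (-0.79, adjusted p = 0.024). The crosslinker Flnc (0.01, SE 0.54), Synpo2l (-0.02, SE 0.32) and Nebl (0.06, SE 0.72) had changes smaller than their SE, and the sign of each turned under at least 1 alternative. The LIM proteins Pdlim1, Pdlim3, Pdlim5 and Fhl1 had changes of -0.46, -0.37, -0.76 and -0.43, and Pdlim5 passed with length-corrected values.

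Of the 4 ubiquitin ligases, 2 fell in C3H. Trim54 went from 4994, 6095 and 5352 normalised counts to 1310 and 1679 (-1.88, SE 0.21, adjusted p = 0.000143). Trim63, the muscle ring finger ligase MuRF1, went from 4768, 12254 and 5272 to 1399 and 2965 (-1.73, SE 0.42, adjusted p = 0.00947), a call lost without C3H injured library 1 (-1.19). Trim55 (-1.04, adjusted p = 0.0645) and Fbxo32, the atrophy ligase atrogin-1 (-0.69, adjusted p = 0.117), were called with mouse as a block (adjusted p = 0.027 and 0.0097). The blocked value for C3H rests on mice 1 and 2, since mouse 3 has no injured library.

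In B6, 0 of 42 members passed the threshold by limma, where 0.0136% of all genes did (2 of 14751, both higher). The counts by edgeR, DESeq2 and the fit with mouse as a block were also 0, where 0.0136%, 0.306% and 0.136% of all genes were called. At an unadjusted p under 0.05 there were 11 members by limma, 13 by edgeR, 18 by DESeq2 and 19 with the block, where 13.4%, 12.3%, 14.5% and 23.9% of all genes were. The median log2 change was -0.36, and -0.03 with quantile normalisation. The 3 lowest estimates were Tnni3 (-1.08, SE 0.39), Tcap (-1.04, SE 0.34) and Tnnt2 (-0.88, SE 0.40), and the 3 highest were Acta1 (0.92, SE 0.51), Synpo2l (0.89, SE 0.28) and Pdlim3 (0.86, SE 0.35), with adjusted p from 0.364 to 0.433.

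Single B6 values show how far the regions overlapped. Myh6 stood at 249885, 243822 and 357306 normalised counts in uninjured and at 164381, 156260 and 228683 in injured libraries, with no overlap (-0.63, SE 0.40). Myl2 stood at 208563, 253805 and 136619 against 155956, 116544 and 85064, which overlapped, as did Myl3 at 220166, 249000 and 135631 against 160141, 102697 and 80592. The thin filament gene Actc1 was at 267447, 291619 and 259010 against 232347, 169497 and 163943, again with no overlap (-0.55, SE 0.47). Tpm1 was at 275898, 331858 and 209557 against 228770, 166213 and 132005. In all, 9 members were lower and 1, Ankrd1, was higher without overlap, against 7.69% and 9.83% of all genes.

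Among Z-disc genes in B6, Des was at 45725, 40881 and 34653 in uninjured and 41330, 34508 and 37902 in injured libraries. Tcap was at 47830, 68863 and 27423 against 28369, 20911 and 17617, and Tnni3 at 148354, 195825 and 85060 against 94208, 58599 and 47350, so that uninjured library 3 lay below injured library 1 in both. Xirp2 ran at 6098, 6645 and 12493 against 8228, 11265 and 14414, and Xirp1 at 1774, 1682 and 3457 against 1618, 2230 and 2971. Trim54 was at 3683, 4523 and 3616 against 2979, 2339 and 2446 and Trim63 at 4081, 6495 and 4705 against 3988, 3496 and 2654, both without overlap. Sums of macrophage markers were 25540 to 37170 in B6 uninjured and 40947 to 57288 in B6 injured libraries, and those of cardiomyocyte reference genes 761256 to 945764 and 529595 to 613116. Fibroblast markers summed to 228349 to 443889 and 473420 to 494607, with 10 of 11 estimates higher, and smooth muscle markers to 9013 to 13777 and 13964 to 18951, with 7 of 8 higher. These 4 lists had no overlap between the regions and 0 genes past the threshold by limma; their part in the B6 values was not tested.

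Within single mice, 24 of 42 members were lower in the injured region of each of the 5 mice with both regions, a pattern of 19.9% of all genes. Synpo2l and Xirp2 were higher in all 5 (18.7% of all genes). For Synpo2l the difference in C3H mice 1 and 2 was as small as 0.003 and 0.029 on the log2 scale. Within B6, 24 members were lower in all 3 mice (24.2% of all genes) and 5 were higher (23.2%), namely Acta1, Ankrd1, Fhl1, Synpo2l and Xirp2. Within C3H, 36 were lower in both mice (40.3%) and 2 higher (39.7%). The difference of the injury effect between the strains (C3H effect minus B6 effect) had a median of -0.94 over the members, and 0 of 42 passed the threshold by limma, where 1.57% of all genes did. There were 16 at an unadjusted p under 0.05, where 14.1% of all genes were. The median over all genes was -0.02. The 17 cardiomyocyte reference genes had a median of -0.84, with 17 lower and 1 past the threshold. The other sarcomere genes described further on had a median of -0.62. The part of a shift shared with these genes was not tested. The same test by edgeR called 1 member (1.58% of all genes), DESeq2 8 (4.86%) and the fit with mouse as a block 1 (3.33%). Trim54 lay nearest the threshold (-1.27, SE 0.29, adjusted p = 0.0513; -1.29, adjusted p = 0.036 with mouse as a block). With DESeq2 the 8 were Trim54, Ldb3, Actn2, Mybpc3, Ankrd1, Myl2, Myoz2 and Tcap, each with a lower effect in C3H.

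Ankrd1, a stress-induced partner of titin, was the 1 member that was higher in the injured region of all 3 B6 mice and lower in that of both C3H mice, a pattern of 1.34% of all genes. In B6 mice 1, 2 and 3 it went from 29911 to 53918, from 31837 to 46369 and from 27107 to 34768 normalised counts. In C3H mice 1 and 2 it went from 32389 to 31180 and from 70585 to 28259, and the unpaired C3H uninjured library 3 held 60095. The effects were 0.58 (SE 0.32) in B6 and -0.80 (SE 0.36) in C3H, and their difference was -1.38 (SE 0.48, adjusted p = 0.202 by limma, 0.022 by DESeq2). In C3H mouse 1 the change was small, and in mouse 2 it was large. Relative to the cardiomyocyte reference genes described further on, the C3H estimate was 0.38 (SE 0.45), with 1.22 in mouse 1 and -0.17 in mouse 2, so that the opposite direction did not hold on that scale.

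Transcript length moved with the libraries. Over all genes, the median deviation of long transcripts (at least 6000 bases) minus that of short ones (at most 1500 bases) was 0.92 and 1.11 on the log2 scale in the C3H injured libraries and 0.54, -0.27 and -0.65 in the C3H uninjured ones; in B6 it was -0.94, -1.09 and 0.46 in uninjured and -0.74, 0.01 and 0.67 in injured libraries. Among the members, the C3H change had a median of -0.58 for 7 long, -1.02 for 20 intermediate and -2.04 for 15 short transcripts. Across the 42 members the correlation of change with log2 length was r = 0.70, against 0.25 across 14026 genes; genes share libraries, so this is a description. With values corrected for length in each library, the 3 medians were -0.90, -1.05 and -1.34, r was 0.28, and 29 members fell, where 35.9% of all genes were called. The correction kept all 23 calls and added Fbxo32, Myh7, Myom2, Pdlim5, Ttn and Xirp1, among them Ttn at -0.90. The highest estimate of a member was then that of Xirp2, at 0.03.

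**Figure D3:**
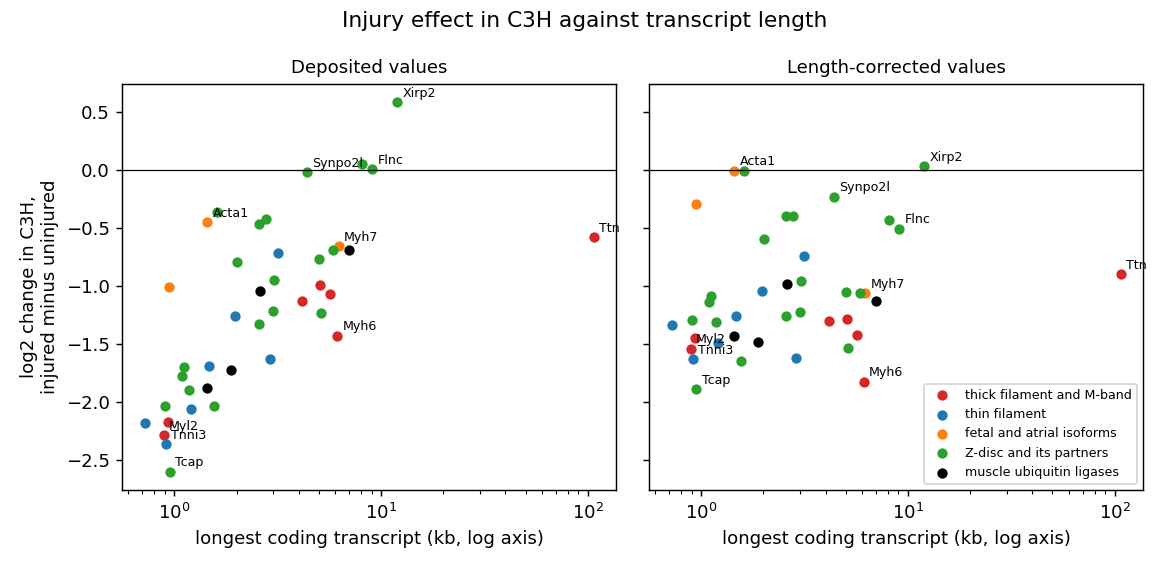
Log2 change in C3H (injured minus uninjured) against the length of the longest coding transcript in kb on a log axis for 41 members (Myl7 is left out), with deposited values (left) and with values corrected for length in each library (right). On the left short transcripts such as Tcap, Tnni3 and Myl2 lie lowest and Xirp2 highest; on the right the slope is smaller and Tcap and Myh6 lie lowest.

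Members were next compared with the 17 cardiomyocyte reference genes, by subtracting the library's mean log2 value of these genes. On this scale 3 members rose and 1 fell in C3H, where 58.0% of all genes rose and 0.319% fell (median of all genes 1.19), and the median of the members was 0.00. Of the 17 reference genes themselves, 2 rose and 2 fell on this scale, with changes from -0.91 to 1.01. The members that rose were Xirp2 (1.76, SE 0.34, adjusted p = 0.000805), Flnc (1.19, SE 0.45, adjusted p = 0.0379) and Synpo2l (1.16, SE 0.27, adjusted p = 0.00271), 3 Z-disc genes, and Tcap fell (-1.43, SE 0.47, adjusted p = 0.0199). Within mice, Xirp2 was higher by 1.65 and 1.92 in C3H mice 1 and 2 and by 0.61, 1.13 and 0.78 in B6 mice 1 to 3, and Synpo2l by 1.27 and 1.18 and by 0.97, 1.84 and 0.99. Tcap was lower by the values -1.32 and -1.34 in C3H and -0.58, -1.35 and -0.06 in B6. The call for Flnc was lost without B6 injured library 2, C3H uninjured library 2 or 3 or either C3H injured library (0.90 to 1.35), and that for Tcap without C3H uninjured library 3 or either injured library (-1.68 to -1.18). Counts ranged from 2 to 11 without single libraries: 11 without B6 uninjured library 3, 7 without C3H uninjured library 1 and 2 without C3H uninjured library 3. In these fits 62.1%, 51.1% and 53.4% of all genes were called.

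With mouse as a block, 7 members rose and 5 fell in C3H on this scale, where 66.0% of all genes rose and 0.529% fell (median of all genes 1.21). Added to the first 4 were Acta1 (1.17), Nebl (0.96), Pdlim1 (0.86) and Fhl1 (0.78), which rose, and Tnni3 (-1.01), Myl2 (-0.92), Trim63 (-0.70) and Trim54 (-0.69), which fell. In B6, 0 members passed by limma without the block (0.0339% of all genes called; 5 members and 22.5% of all genes at an unadjusted p under 0.05) and 5 rose with it, where 13.0% of all genes did. These 5 were Acta1 (1.29, adjusted p = 0.021), Synpo2l (1.27, adjusted p = 0.021), Pdlim3 (1.24, adjusted p = 0.032), Ankrd1 (0.96, adjusted p = 0.042) and Xirp2 (0.84, adjusted p = 0.027). The median of all genes in this blocked B6 fit was 0.39. Without B6 uninjured library 1, Acta1, Pdlim3 and Synpo2l passed in the fit without the block (1.94, 1.81 and 1.31), where 8.02% of all genes did. Acta1, Synpo2l and Xirp2 rose with the block in both strains, where 13.0% of all genes rose in B6 and 66.0% in C3H. The overlap of the strains was not tested.

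**Figure D4:**
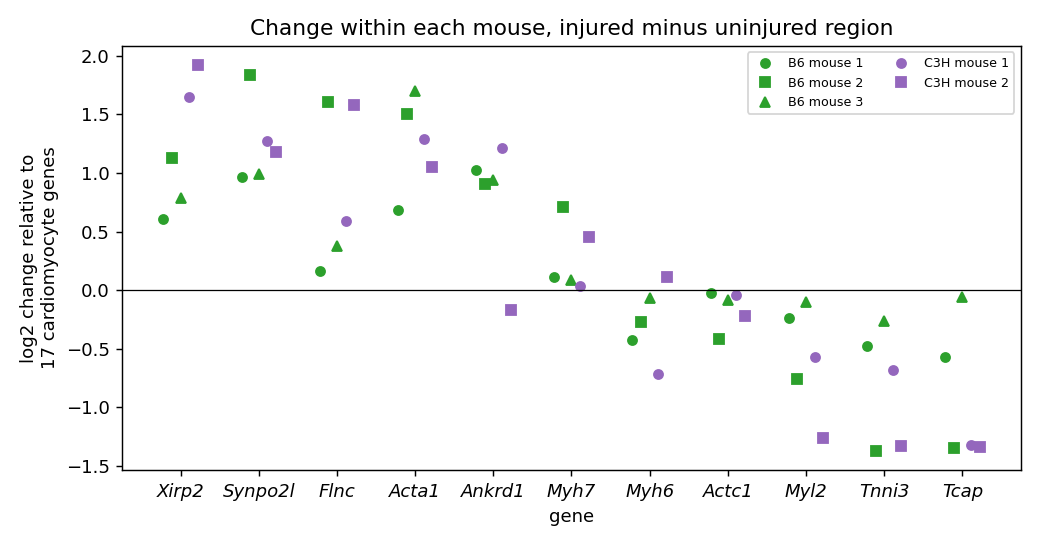
Log2 change within each of the 5 mice, injured minus uninjured region, relative to the mean of 17 cardiomyocyte reference genes, for 11 members; green is B6, purple is C3H, and symbols mark the mouse. Xirp2, Synpo2l, Flnc and Acta1 lie above 0 in all 5 mice, and Myl2, Tnni3 and Tcap below 0.

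Of the 4 fetal and atrial isoforms, 0 passed the threshold in C3H by limma (0 also at an unadjusted p under 0.05, median -0.84). They were followed as ratios within a library, in which the size factor cancels apart from the 1 added before the log. That addition matters for the few reads of Myl7. Counts of the near-identical pairs Acta1 with Actc1 and Myh7 with Myh6 are uncertain, since the treatment of reads shared between copies is not stated in the labels. Acta1, skeletal alpha-actin, was at 16169, 5593 and 5840 normalised counts in B6 uninjured, 22895, 12313 and 12703 in B6 injured, 25570, 13215 and 43133 in C3H uninjured and 25885 and 12356 in C3H injured libraries. As a share of Acta1 plus Actc1 this was 5.70, 1.88 and 2.21% in B6 uninjured and 8.97, 6.77 and 7.19% in B6 injured libraries. In C3H the share was 8.70, 9.48 and 10.2% in uninjured and 19.3 and 20.2% in injured libraries. The share was higher in the injured region of all 5 mice with no overlap between the regions of either strain. The mean log2 ratio of Acta1 to Actc1 was higher in injured regions by 1.47 in B6 and 1.24 in C3H. In C3H the level of Acta1 itself changed by -0.45 (SE 0.57) while Actc1 changed by -1.69. The median change of all genes in C3H was 0.01, so the ratio of a gene at that median to Actc1 would be higher too. A ratio to a falling partner can thus rise without a rise of the isoform, here and in the ratios below.

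Myh7, beta-myosin heavy chain, was at 13655, 13689 and 28188 normalised counts in B6 uninjured, 13064, 17352 and 20083 in B6 injured, 95659, 137544 and 60993 in C3H uninjured and 40690 and 85082 in C3H injured libraries. As a share of Myh7 plus Myh6, which are of near-equal length, it was 5.18, 5.32 and 7.31% in B6 uninjured and 7.36, 9.99 and 8.07% in B6 injured libraries. In C3H it was 13.9, 26.9 and 13.3% in uninjured and 21.3 and 31.9% in injured libraries. The share was higher in the injured region of each of the 5 mice, the regions did not overlap in B6, and in C3H they overlapped through mouse 2. Mean log2 ratios of Myh7 to Myh6 were higher in injured regions by 0.56 in B6 and 0.77 in C3H. The C3H value was 0.38 without injured library 2, 1.17 without injured library 1 and 1.18 without uninjured library 2. Myh7 itself changed by -0.07 (SE 0.41) in B6 and -0.66 (SE 0.46) in C3H, and with mouse as a block it fell in C3H (-0.96, adjusted p = 0.046). The C3H uninjured library of mouse 2 held the highest Myh7 of all 11 libraries, along with the highest Nppa (69974) and Myom2 (49546).

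The atrial light chains were scarce. Myl4 was at 52.1, 97.5 and 30.6 normalised counts in B6 uninjured, 79.9, 42.4 and 31.8 in B6 injured, 91.1, 59.7 and 131 in C3H uninjured and 56.2 and 33.9 in C3H injured libraries, and its change was -0.17 (SE 0.49) in B6 and -1.01 (SE 0.54) in C3H. Its mean log2 ratio to Myl3 was higher in injured regions by 0.66 in B6 and 1.16 in C3H. Myl7 was at 0, 24.9 and 1.18 in B6 uninjured, 0, 14.9 and 1.72 in B6 injured, 17.8, 5.23 and 18.6 in C3H uninjured and 0.865 and 1.41 in C3H injured libraries. Over the C3H groups this was 44 reads against 3, a depth-scaled ratio of 0.082 (exact 95% interval 0.0163 to 0.256, for counting error only).

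**Figure D5:**
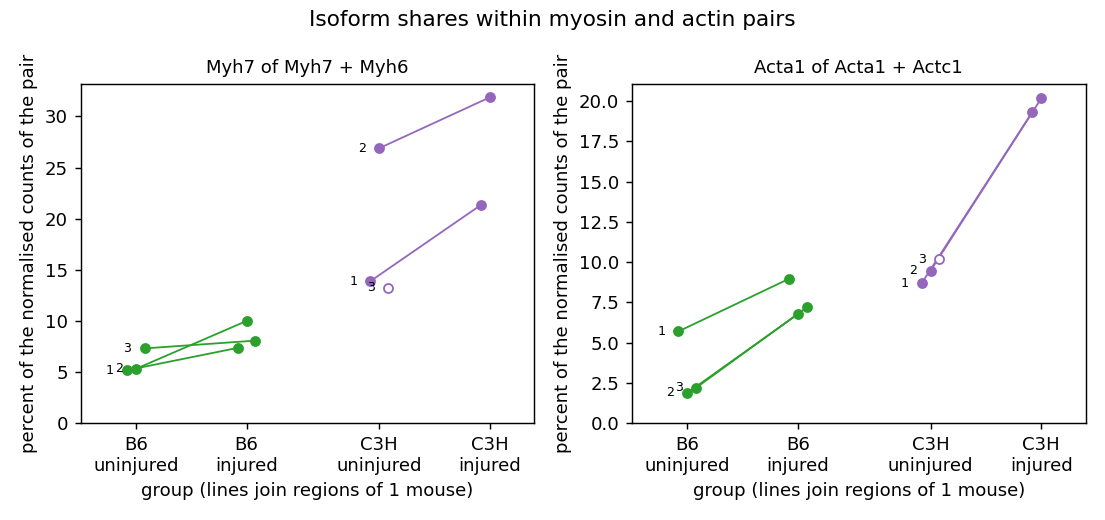
Share of Myh7 in Myh7 plus Myh6 (left) and of Acta1 in Acta1 plus Actc1 (right), in percent of the pair's normalised counts, for each library; lines join the regions of a mouse, numbers name the mouse, and the open circle is C3H mouse 3, without an injured library. All 5 lines rise in both panels, and C3H lies above B6 within each region.

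Between the strains, Myh7 was the 1 member called in uninjured regions, where 3.10% of all genes were (1.32% higher in C3H). It was higher in C3H by 2.42 (SE 0.41, adjusted p = 0.0071), with no overlap. In uninjured regions 34 of 42 members had higher estimates in C3H (median 0.54), 14 of them without overlap, a pattern of 7.63% of all genes, and 0 were lower without overlap (9.27%). In the same comparison 13 of 17 cardiomyocyte reference genes were higher (median 0.61), 11 of 11 macrophage markers were lower (median -0.88, 2 past the threshold) and 9 of 11 fibroblast markers were lower (1 past it); their part in the strain values was not tested. DESeq2 called 9 members (6.22% of all genes), among them Acta1 (1.57), Synpo2l (1.03) and Ankrd1 (0.88), and 8 passed with length-corrected values (5.17%). Without B6 uninjured library 3 there were 4 calls (5.34% of all genes), among them Synpo2l (1.43) and Xirp1 (1.35). Without C3H uninjured library 1 there were 2 (2.45% of all genes).

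In injured regions 3 members passed, where 7.06% of all genes did. Myh7 was higher in C3H (1.83, SE 0.46, adjusted p = 0.035), and Myl2 (-1.90, SE 0.42, adjusted p = 0.0213) and Trim54 (-0.79, SE 0.21, adjusted p = 0.0452) were lower, all without overlap. In all, 21 members were lower in C3H without overlap (24.2% of all genes) and 1 higher (24.9%). The cardiomyocyte reference genes had a median of -0.62, against -0.57 for the members, and 9 of 11 macrophage markers were higher (4 past the threshold); their part was not tested. The call for Trim54 was also lost with length-corrected values (-0.42), with the injured libraries fitted alone, and without B6 uninjured library 1, B6 injured library 3 or C3H uninjured library 1 or 3. No member passed without B6 injured library 1 or 2 (2.27% and 2.97% of all genes), and 5 passed without B6 uninjured library 3 (8.96%). With each library left out in turn, the calls for Myh7, Myl2 and Trim54 were lost 15 times and kept 18 times. The omissions named here do not cover all of these losses. Without single libraries the estimates ranged from 1.30 to 2.36 for Myh7, from -2.12 to -1.68 for Myl2 and from -0.97 to -0.62 for Trim54. DESeq2 called 15 members (13.7% of all genes), 14 of them lower. Reads were aligned to a build of the B6 genome, and the loss of C3H reads over variants was not tested.

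A comparison list of 60 other sarcomere genes gave 58 in the table. In C3H 23 of these fell and 3 rose (median -0.72), and in B6 0 passed by limma (12 at an unadjusted p under 0.05). Of all genes 15.4% fell and 15.3% rose in C3H. In B6 0.0136% of all genes passed and 13.4% had an unadjusted p under 0.05. The largest falls past the threshold were in Tnnt1, the slow skeletal troponin T (-2.74, SE 0.37), Myh7b (-2.20, SE 0.39), Itgb1bp2 (-2.04, SE 0.29) and the leiomodin Lmod3 (-1.92, SE 0.33). Tnnt1 was at 482, 406 and 229 normalised counts in B6 uninjured, 278, 146 and 150 in B6 injured, 682, 460 and 644 in C3H uninjured and 96.8 and 77.7 in C3H injured libraries. Myh7b was at 923, 465 and 623 normalised counts in B6 uninjured, 266, 248 and 638 in B6 injured, 1675, 1355 and 1212 in C3H uninjured and 283 and 326 in C3H injured libraries. In both the C3H injured libraries lay below the C3H uninjured ones. Itgb1bp2 was at 3776, 4772 and 2924 normalised counts in B6 uninjured, 2942, 1962 and 1616 in B6 injured, 3768, 3480 and 4666 in C3H uninjured and 1083 and 844 in C3H injured libraries. Lmod3 was at 2640, 2874 and 2670 normalised counts in B6 uninjured, 2414, 1722 and 1645 in B6 injured, 3039, 2010 and 4143 in C3H uninjured and 1058 and 567 in C3H injured libraries. These 2 showed the same order in C3H. The genes that rose were the tropomyosin Tpm3 (1.31, SE 0.26), the capping protein subunit Capza1 (1.30, SE 0.22) and the LIM protein Csrp1 (0.97, SE 0.29), all known in many cell types outside muscle. Tpm3 was at 2345, 1964 and 1238 normalised counts in B6 uninjured, 2464, 2167 and 1984 in B6 injured, 1128, 1024 and 1306 in C3H uninjured and 2716 and 2966 in C3H injured libraries. Capza1 was at 655, 583 and 622 normalised counts in B6 uninjured, 788, 974 and 765 in B6 injured, 464, 314 and 408 in C3H uninjured and 972 and 952 in C3H injured libraries. Csrp1 was at 2194, 1636 and 1289 normalised counts in B6 uninjured, 3005, 2786 and 2088 in B6 injured, 1072, 635 and 985 in C3H uninjured and 1847 and 1603 in C3H injured libraries. All 3 were higher in the C3H injured libraries with no overlap in C3H. The call for Csrp1 was lost without C3H uninjured library 2 or either injured library (0.74, 0.87 and 1.08).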

How the data were processed

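RNA from uninjured and injured heart regions was extracted with a column kit and made into Illumina libraries, per the labels' protocols. Per the submitters' processing notes, TopHat2 2.0.11, HTSeq 0.6.1, DESeq (version not given) and build mm9 were used; annotation, strandedness and filters are not stated there. The values deposited by the authors are a signal: gene counts divided by 1 size factor per library. Of the deposited values 100% were whole multiples of 1 read (tolerance 1e-06), so reads were recovered for the count tests.

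Groups were compared with limma 3.58.1 (R 4.3.3) on log2(normalised count + 1), with 4 group means over 11 libraries, a trended prior and 7 residual degrees of freedom. Fold changes are on that scale and understate changes of low genes. P-values were Benjamini-Hochberg adjusted over 14751 genes, threshold 0.05. Each group held 2 or 3 mice, which limits precision. Same-mouse libraries of different regions correlated in their residuals (0.276, -0.0140 and 0.524 in B6, 0.305 and 0.575 in C3H), and the labels name the mouse, so a fit with mouse as a block was added (3 residual degrees of freedom).

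Alternatives were edgeR 4.0.16, DESeq2 1.42.0, TMM, quantile normalisation, pseudocounts 0.5 and 5, other filters, only the groups compared, and single libraries left out. Length-corrected values (lowess, span 0.3) were added after seeing the data. Members and lists were chosen with earlier results of these data known. Values of every library were given for the 2 members with the highest mean in each role, the fetal isoforms, Ankrd1, Xirp1 and Xirp2. They were also given for members past the threshold in B6, in the strain difference or between strains (up to 4 each). The same holds for the 3 largest rises and 3 largest falls past the threshold in C3H, and for up to 4 rises and 4 falls among other sarcomere genes. For the highest member of each marker list, a range, single values or the C3H libraries alone were given.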

Additional observations from a re-analysis of the deposited data

Results flagged for a closer look

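Ankrd1 was higher in the injured region of 3 of 3 B6 mice and lower in that of 2 of 2 C3H mice. The C3H effect minus the B6 effect was -1.38 on the log2 scale (SE 0.48, limma adjusted p = 0.202; DESeq2 -1.48, adjusted p = 0.022). The difference did not pass the threshold by limma. Such opposite directions were found in 1.34% of all genes. Relative to the cardiomyocyte reference genes the C3H estimate was 0.38 (1.22 in mouse 1 and -0.17 in mouse 2), so that the opposite direction did not hold on that scale.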

How the results depend on the processing

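Members called in C3H injury numbered 23, 15 with quantile normalisation and 15 to 24 without single libraries. For the strain difference of the injury effect, with 0 calls, there were 8 with DESeq2, 3 with length-corrected values with or without the replicate block, 2 with mouse as a random block and 1 each with the fixed block, edgeR, TMM, quantile normalisation, a filter of 50 and a pseudocount of 5. Of all genes 1.57% passed where 0 members did, 4.86% with DESeq2 and 5.27% with the random block. With length-corrected values 3.55% passed without the block and 5.25% with it, and 1.51 to 3.33% in the fits with 1 call. In uninjured regions the strains differed in 1 member, 9 with DESeq2, 8 with length-corrected values, 2 with edgeR or TMM and 1 to 4 without single libraries. The shares of all genes were 3.1%, 6.22% with DESeq2, 5.17% with length-corrected values, 2.76% with edgeR and 3.15% with TMM. Without single libraries they were 1.44 to 5.34%. In injured regions the strains differed in 3, 15 with DESeq2, 10 with quantile normalisation, 9 with only the groups compared, 6 with length-corrected values, 5 with edgeR or a filter of 50 and 0 to 5 without single libraries. Here 7.06% of all genes passed, 13.7% with DESeq2, 10.3% with quantile normalisation and 10.6% with only the groups compared. With length-corrected values 9.27% passed, with edgeR 7.46% and with a filter of 50 7.92%. Relative to the reference genes, B6 calls were 0, 5 with either block, 1 with length-corrected values, 6 with these and the block, and 0 to 3 without single libraries. The shares of all genes were 0.0339%, 13.1% with the fixed and 19.7% with the random block. They were 1.8% with length-corrected values and 16.4% with these and the block. C3H calls were 4, 12 with the fixed and 11 with the random block, 10 with length-corrected values with or without the block, and 2 to 11 without single libraries. The C3H shares of all genes were 58.3%, 66.5% with the fixed and 68.5% with the random block. They were 74.2% with length-corrected values and 75.2% with these and the block.

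Directions turned in B6 with quantile normalisation for Myh6 (0.00855), Actc1 (0.00674), Actn2 (0.00207), Myh7 (0.36) and Des (0.27), and with length-corrected values, with and without the block, for Myl4 (0.19) and Xirp1 (-0.14; DESeq2 -0.0205). In C3H they turned with quantile normalisation for Myh7 (0.18), Acta1 (0.0945; 0.30 with length correction and block) and Synpo2l (0.16; 0.0159 with the fixed block). Flnc turned with the fixed block (-0.12), random block (-0.0421), edgeR (-0.14), DESeq2 (-0.14), length correction (-0.51) and length correction with block (-0.49), and Nebl likewise (-0.25, -0.0639, -0.0856, -0.0838, -0.43 and -0.61). Without single libraries the ranges that crossed 0 were, in C3H, Acta1 -0.98 to 0.0836, Flnc -0.34 to 0.49, Nebl -0.25 to 0.48, Synpo2l -0.23 to 0.19 and relative Ankrd1 -0.0573 to 0.67, and in B6 Des -0.19 to 0.0066, Flnc -0.0507 to 0.83, Myh7 -0.25 to 0.28, Myl4 -0.57 to 0.25, Nebl -0.0413 to 1.53 and Xirp1 -0.20 to 0.35. The log2 ratio of Myl7 to Myl2 in C3H went from -0.35 to 0.76 with a pseudocount of 5, where Myl7 has few reads. The cause of the other turns was not tested.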
